A study of Mus musculus with 2 samples.

Results

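Floor plate and ventral neural tube factors were examined in the brain of mouse embryos that were either wild type or *Plzf* lu/lu. The group holds 9 genes, taken by name: *Foxa1*, *Foxa2*, *Nkx2-2*, *Nkx2-9*, *Nkx6-1*, *Nkx6-2*, *Lmx1b*, *Sim1* and *Ntn1*. They are 9 of the 37071 gene names on the array and are read by 12 of its 56601 probes. RNA from the forebrain and midbrain at E10.5 was compared on 2 arrays with 2 dyes each. The methods name these regions, and the sample labels say brain. Each array carried 1 wild type sample in Cy3, labeled as C57BL/6, and 1 *Plzf* lu/lu sample in Cy5, labeled as luxoid. *luxoid* (*lu*) is a spontaneous mutation that truncates Plzf, a zinc finger transcription factor encoded by *Zbtb16*. The mutation is present in every cell of the embryo, so the arrays do not separate neural from non-neural effects of its loss. The number of embryos behind each sample and the genetic background of the *lu* animals are not given in the sources used here. The labels call the samples biological replicates. The dyes were not exchanged, so a dye effect on a probe and the genotype cannot be told apart.

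The floor plate is the strip of cells at the ventral midline of the neural tube. It forms above the notochord, which secretes Shh, and itself becomes a source of Shh. Cells at successive distances from this source switch on different homeobox genes, and the overlap of their domains sets which neurons arise at each dorsoventral level. Foxa1 and Foxa2 are forkhead factors of the floor plate itself, and in the midbrain they act with Lmx1b in the progenitors of dopaminergic neurons. Ntn1 is a secreted protein of the floor plate that guides commissural axons.

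The processed signal of a probe is the intensity of its spot once the background has been subtracted and the dyes of the array normalized. A gene passed the signal filter when this value was above 200 and the spot was at least 5 SDs of the background above background, in both channels of both arrays. *Foxa2*, *Nkx6-1*, *Nkx6-2* and *Lmx1b* passed, as 4 of the 9 members, against 10600 of all gene names. A looser criterion, a flag of well above background in every channel, was met by 8 of the 9 members and by 23283 gene names. *Sim1* was the exception. The ratio is always *Plzf* lu/lu over wild type, and 1.3-fold on both arrays is the size that counts as a change here. The smallest p of an exact sign-flip test on 2 arrays is 0.5, so each gene was tested with limma, which pools the variance over all genes tested.

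Among the members that passed, *Foxa2* was higher in *Plzf* lu/lu by more than 1.3-fold on both arrays, and none was lower. In all, 2.58% of the 10600 genes were higher by this rule and 0.736% were lower. In limma, 0 members had an adjusted p under 0.05, where 0.0283% of all genes did, and 1 member, *Foxa2*, had an unadjusted p under 0.05. *Foxa2* also had an adjusted p under 0.1, a level reached by 12.2% of the genes tested. Among the 8 members well above background, *Foxa2* was higher (2.52% of the 23283 genes were) and *Nkx2-9* was lower (2.07% were). These 8 members had a median log2 ratio of 0.01, against 0.00 for the 23283 genes. The members therefore did not move one way as a group, and they are described one by one below.

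**Figure D1:**
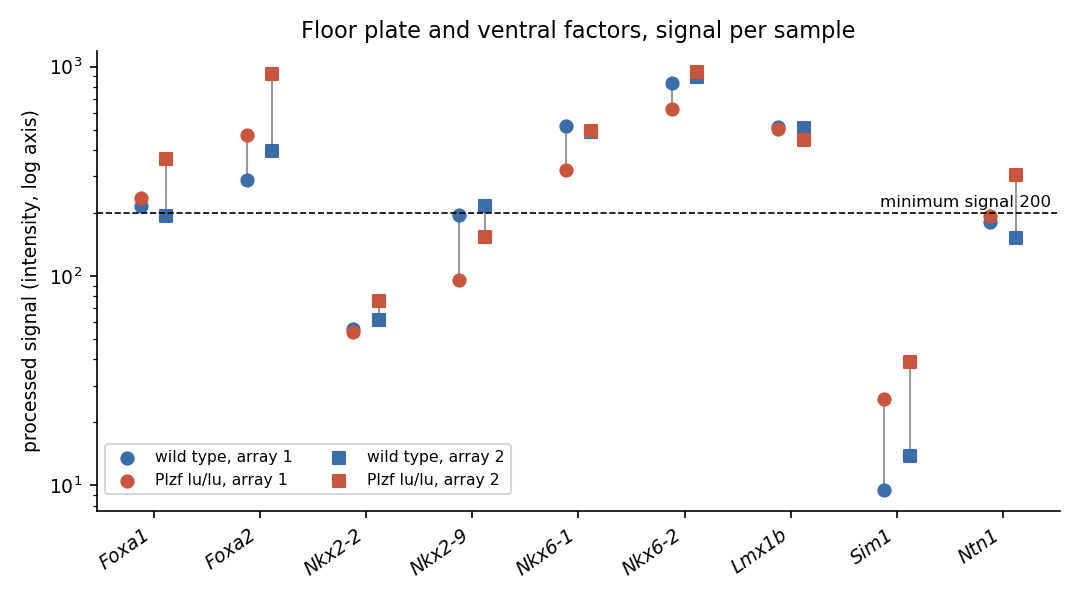
Processed signal (log axis) of each member in each of the 4 samples, brightest probe per gene; circles are array 1 and squares array 2, blue wild type and red Plzf lu/lu, with a grey line joining the samples of 1 array. Both Foxa2 signals in Plzf lu/lu (473 and 916) lie above both in wild type, both Nkx2-9 signals lie below, and the Sim1 points lie far under the minimum of 200. Signals are comparable within a gene, not between genes.

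*Foxa2* (NM_001291067) is the factor most closely tied to floor plate identity. Its probe lies on the minus strand of chromosome 2 at chr2:147868669-147868728 (mm9). The processed signal was 288 in wild type and 473 in *Plzf* lu/lu on array 1, and 394 and 916 on array 2. Both *Plzf* lu/lu samples were above both wild type samples, and the array 2 sample was the higher in each genotype. The ratio was 1.65-fold on array 1 and 2.33-fold on array 2, with 0.97 as the mean on the log2 scale (SD 0.35, n = 2 arrays). In limma over the genes that passed the filter, the unadjusted p was 0.000389 and the adjusted p was 0.051, with an SE of 0.13. Among genes well above background, the set used below for members that did not pass, the adjusted p in limma was 0.252. *Foxa2* is among the genes that the study selected on these same arrays, so its direction is not independent evidence. In a bulk sample, more cells of a type and more RNA per cell cannot be told apart. The first 30 bases of the 60-base probes are shown here for the members with the widest differences between genotypes, with G and C in capitals, because the ratio varied with the base composition of the probe:
Foxa2: CGGGtCtGatttaatttatGGtttCtGCGt
Nkx2-9: GCGCCaGtCCCaGaGCaaGattttatttCt
Sim1: taaataGCtttCtGaaGtaaaattGaaGtt
Ntn1: atGaatatatttaatGaCatGGaGaaaGtt

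Over the 10600 genes, which are not independent replicates, the Spearman correlation of the log2 ratio with the GC content of the probe was -0.38 on array 1 and -0.20 on array 2. The *Sim1* and *Ntn1* probes hold 23.3% G and C over their whole length, the *Foxa1*, *Foxa2* and *Nkx2-9* probes 35%, and the median probe 41.7%. With the trend on GC content removed, the mean log2 ratio of *Foxa2* was 0.88 and its adjusted p in limma was 0.0223. The part of base composition in the ratios of single members was not tested.

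*Foxa1* (NM_008259), the paralog of *Foxa2* that shares much of its midline expression, was read on chromosome 12 at chr12:58641764-58641823 (mm9, minus strand). The signal was 217 in wild type and 236 in *Plzf* lu/lu on array 1, and 192 and 361 on array 2. The *Plzf* lu/lu samples were both above the wild type samples, narrowly on array 1 and clearly on array 2. The ratio was 1.09-fold on array 1 and 1.88-fold on array 2, a mean log2 ratio of 0.52 (SD 0.55). One wild type signal was under 200, so *Foxa1* lay outside the filtered set. Among genes well above background its adjusted p in limma was 0.331.

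*Ntn1* (NM_008744), the netrin of the floor plate, was read at chr11:68022986-68023045 (mm9, minus strand). The signal was 181 in wild type and 194 in *Plzf* lu/lu on array 1, and 152 and 303 on array 2. As for *Foxa1*, the genotypes did not overlap, but the array 1 samples differed little and the array 2 samples differed by 2.00-fold. The ratio on array 1 was 1.07-fold. The mean log2 ratio was 0.55 (SD 0.64), and the adjusted p in limma among genes well above background was 0.35. With the GC trend removed the mean was 0.37.

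*Nkx2-9* (NM_008701) and *Nkx2-2* (NM_010919) are homeobox factors of the progenitors that border the floor plate, and both are switched on by high Shh signaling. *Nkx2-9* was read at chr12:57712410-57712469 (mm9, minus strand). Its signal was 195 in wild type and 95.8 in *Plzf* lu/lu on array 1, and 216 and 154 on array 2. Both *Plzf* lu/lu samples were below both wild type samples. The ratio was 0.490 on array 1 and 0.714 on array 2, a mean log2 ratio of -0.76 (SD 0.38). The unadjusted p in limma was 0.0106 and the adjusted p 0.252, among the genes well above background. Only 1 of the 4 channels met the signal filter. The direction of *Nkx2-9* was thus opposite to that of *Foxa2*, *Foxa1* and *Ntn1* on both arrays.

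*Nkx2-2* gave 56.0 in wild type and 53.8 in *Plzf* lu/lu on array 1, and 61.9 and 76.4 on array 2. The genotypes overlapped, and all 4 signals were far under 200. The mean log2 ratio was 0.12 (SD 0.26), with an adjusted p of 0.63 in limma among genes well above background. A second probe, for the transcript NM_001077632 at chr2:147003307-147003366 (mm9), gave log2 ratios of 0.59 and 0.36, but its array 1 wild type signal was not well above background. Neither probe of *Nkx2-2* met the filter in any channel.

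*Nkx6-1* and *Nkx6-2* are closely related repressors of wider ventral domains, which keep dorsal programs out of ventral progenitors. *Nkx6-1* (NM_144955, chr5:102088319-102088378, mm9) gave 518 in wild type and 319 in *Plzf* lu/lu on array 1, and 488 and 492 on array 2. *Nkx6-2* (NM_183248, chr7:146767130-146767189, mm9) gave 832 and 624 on array 1, and 887 and 945 on array 2. In both genes the array 1 *Plzf* lu/lu sample was the lowest of the 4, and the other 3 were close together. The log2 ratio of *Nkx6-1* was -0.70 on array 1 and 0.01 on array 2, with an adjusted p of 0.244 in limma. The log2 ratio of *Nkx6-2* was -0.41 on array 1 and 0.09 on array 2, with an adjusted p of 0.446. Array 1 alone would place both genes below the inverse of 1.3-fold, and array 2 alone would place neither there.

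*Lmx1b* encodes a LIM homeobox factor of the midbrain floor plate and of the isthmic organizer. It is read by 3 probes at different places on the minus strand of chromosome 2 (mm9), at chr2:33416576-33416635, chr2:33495011-33495070 and chr2:33424708-33424767. The first 30 bases of each are shown in this order, with G and C in capitals, because the probes differ in composition and gave different ratios:
Lmx1b probe 1: tGtCattGttaaattatttattaGCGtttC
Lmx1b probe 2: GCCCtCaCCaCCaGCtGCtaCttCCGGGat
Lmx1b probe 3: aGatCGCGCCtaCCGaGttCGtCatGCGGG

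The first probe gave 513 in wild type and 502 in *Plzf* lu/lu on array 1, and 511 and 447 on array 2. The *Plzf* lu/lu samples were both slightly below the wild type samples. The mean log2 ratio was -0.11 (SD 0.12), and the adjusted p in limma was 0.411. The second probe gave log2 ratios of 0.09 and -0.43, and the third 0.56 and -0.24, with the array 1 wild type signal of the third not well above background. The 3 probes thus shared a direction on array 2, where all were lower in *Plzf* lu/lu, and not on array 1.

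*Sim1* (NM_011376) encodes a bHLH-PAS factor of ventral interneurons and of the hypothalamus. Its probe at chr10:50708865-50708924 (mm9, plus strand) gave 9.51 in wild type and 25.8 in *Plzf* lu/lu on array 1, and 13.8 and 38.8 on array 2. Both *Plzf* lu/lu samples were above both wild type samples, with a log2 ratio of 1.44 on array 1 and 1.49 on array 2. These signals are close to background. The array 1 wild type spot was not well above background, so wild type was measured on 1 of 2 arrays, and the signal-to-noise ratio was under 5 in all 4 channels, between 1.92 and 3.98. With normexp background correction and loess normalization in place of the software's, the mean log2 ratio fell from 1.46 to 0.51. In limma without any filter the adjusted p was 0.506.

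**Figure D2:**
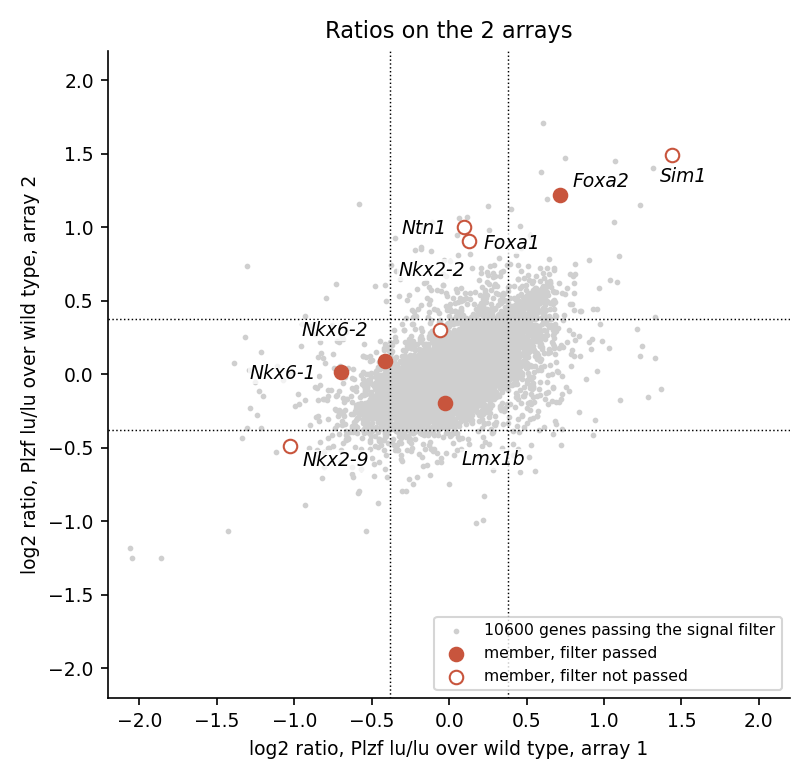
Log2 ratio of Plzf lu/lu over wild type on array 1 (x axis) and array 2 (y axis) for the 10600 genes passing the signal filter (grey) and the 9 members (red, filled where the filter was passed); dotted lines mark 1.3-fold, and 1 grey gene lies outside the axes. Foxa2 and Sim1 lie beyond 1.3-fold on both arrays in the upper right, Nkx2-9 in the lower left, and 8 of the 9 members have a higher ratio on array 2 than on array 1.

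Seen over all members, 4 had a positive log2 ratio on both arrays, 2 a negative one, and 3 changed sign. The *Plzf* lu/lu signals lay wholly above the wild type signals in *Foxa1*, *Foxa2* and *Ntn1* and wholly below in *Nkx2-9* and *Lmx1b*, among the 8 members well above background. Of all genes at that level, 24% lay wholly above and 22.4% wholly below, so these counts of 3 and 2 are not far from the background. Under normexp with median centring, the median log2 ratio of all filtered genes moved to 0.55. The means of *Nkx6-1* (0.13), *Nkx6-2* (0.39) and *Lmx1b* (0.38) then became positive but lay below that median, and *Foxa2* (1.37) lay above it.

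The 2 *Plzf* lu/lu samples differed from each other in nearly the whole group. Among the 8 members well above background, the *Plzf* lu/lu signal was more than 1.3-fold higher on array 2 than on array 1 in 7, against 9.49% of all 23283 genes. The wild type signal was higher to that extent in 1 member, *Foxa2*, against 11.2% of all genes. This comparison was chosen after the values were seen, and with 1 sample of each genotype per array it has no test. The arrays had not been normalized to each other. When quantile normalization of the mean log signal was applied between them, the counts were again 7 and 1.

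Between the *Plzf* lu/lu samples the signal of *Foxa2* was 1.94-fold higher on array 2 than on array 1, and those of *Nkx2-9* and *Ntn1* differed by 1.61-fold and 1.56-fold. *Nkx6-1* (1.54-fold), *Foxa1* (1.53-fold), *Nkx6-2* (1.51-fold) and *Nkx2-2* (1.42-fold) differed by similar factors. The difference was therefore shared by members that were higher, lower or little different between genotypes. *Lmx1b*, at 0.890, was the only member to differ the other way, and its other 2 probes also gave lower signals in the array 2 sample, at 0.854 and 0.895.

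Between the wild type samples the corresponding values were 1.37 for *Foxa2*, 1.11 for *Nkx2-2*, 1.11 for *Nkx2-9*, 1.07 for *Nkx6-2*, 0.996 for *Lmx1b*, 0.942 for *Nkx6-1*, 0.888 for *Foxa1* and 0.835 for *Ntn1*. The median over the 8 members was 1.54 in *Plzf* lu/lu and 1.03 in wild type, and over all genes it was 1.01 and 1.02. As a result the ratio itself was over 1.3-fold higher on array 2 in 6 of the 8 members, against 9.26% of all genes, and lower in 0. For genes with a signal between 200 and 1000, the log2 ratios of the 2 arrays differed by a median of 0.14, with a 90th percentile of 0.39. Array 2 minus array 1, the difference was 0.91 for *Ntn1*, 0.78 for *Foxa1*, 0.71 for *Nkx6-1*, 0.51 for *Nkx6-2*, 0.50 for *Foxa2* and -0.16 for *Lmx1b*. For genes with a signal between 50 and 200, the median was 0.16 and the 90th percentile 0.47. The difference was 0.54 for *Nkx2-9* and 0.36 for *Nkx2-2*, whose mean signals lie in that range.

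**Figure D3:**
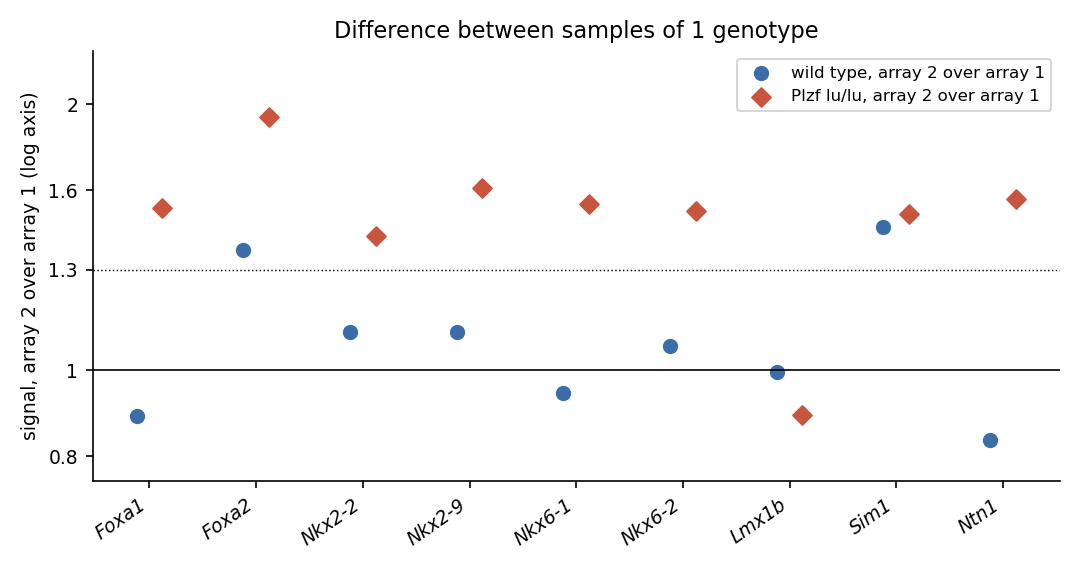
Processed signal on array 2 over that on array 1 (log axis) for each member, in wild type (blue circles) and in Plzf lu/lu (red diamonds); the solid line marks equal signals and the dotted line 1.3-fold. In Plzf lu/lu all members except Lmx1b lie above the dotted line, between 1.42 and 1.94 for those well above background, and in wild type only Foxa2 and the dim Sim1 do.

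Markers of other tissues also differed between samples. The summed signal of 6 surface ectoderm markers was 8311 in wild type and 12590 in *Plzf* lu/lu on array 1, and 11920 and 9205 on array 2. It was lower in the array 2 *Plzf* lu/lu sample, opposite to the ventral factors, and 5 of the 6 markers were lower there by more than 1.3-fold. The sum of 5 primitive erythrocyte markers was 343900, 184400, 146800 and 177900 in the same order, and differed most between the wild type samples. The sum of 6 neuroepithelial markers was 21490, 22060, 21270 and 29100. Of these markers, 1 was more than 1.3-fold higher in the array 2 *Plzf* lu/lu sample than in that of array 1. It was *Hes5*, at 16090 against 10130, and the rest were higher by 1.06-fold to 1.12-fold. The part of these differences in the values of the ventral factors was not tested.

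The labelled tissue was checked against its markers. All 6 neuroepithelial markers passed the filter, and *Sox2* and *Cdh2* were more than 1.3-fold higher in *Plzf* lu/lu on both arrays. The 6 Hox genes on the list of hindbrain and spinal cord markers were not well above background in every channel. *Foxa1* and *Foxa2* are also expressed in endoderm and notochord. Of 8 pharyngeal endoderm markers, 6 were well above background and 0 passed the filter, and the sum of the 8 was 465 in wild type and 493 in *Plzf* lu/lu on array 1, and 490 and 449 on array 2. *Foxa3*, with signals from 8.21 to 17.0, was well above background in every channel except the array 1 wild type. Of 4 notochord markers, 2 were well above background in every channel and 0 passed the filter. These 2 were *Chrd*, with signals from 49.3 to 62.0, and *Nog*, from 32.9 to 52.5. The others were *T* and *Noto*. *T*, with signals from 7.58 to 9.41, was well above background in every channel except the array 1 wild type, and *Noto* in 0 channels. The sum of the 4 was 125 and 110 on array 1, and 93.1 and 104 on array 2. The part of these tissues in the *Foxa1* and *Foxa2* signals was not tested. Sums of 5 endothelial markers were lower in *Plzf* lu/lu on both arrays, at 730 against 1043 and at 648 against 1080, and those of 6 mesenchyme and crest markers were 2798, 2758, 2662 and 2324.

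The ligand upstream of these factors was measured on the same arrays. *Shh* gave 536 in wild type and 1120 in *Plzf* lu/lu on array 1, and 677 and 1385 on array 2. It was higher in both *Plzf* lu/lu samples, with log2 ratios of 1.06 and 1.03 and an adjusted p of 0.0469 in limma. That p depended on the setting. In limma it was 0.252 among genes well above background and 0.0133 with the GC trend of the probe removed. Unlike 7 of the members, *Shh* differed between the 2 *Plzf* lu/lu samples (1.24-fold) no more than between the wild type samples (1.26-fold). Of 15 hedgehog pathway genes on the list 10 passed, and of these *Shh* was higher by more than 1.3-fold on both arrays and 0 were lower. The median log2 ratio of the 10 was 0.13, against 0.01 for all filtered genes. In 0 of the 15 was the *Plzf* lu/lu signal more than 1.3-fold higher on array 2.

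*Shh* was, like *Foxa2*, among the genes the study selected on these samples. Of 11 other floor plate genes, 5 passed. All 11 were well above background, and among those that did not pass the filter *Foxj1*, a factor of motile cilia, was lower on both arrays (-0.75 and -0.63 on the log2 scale). The log2 ratios of the 5 genes had a median of 0.21 on array 1 and 0.69 on array 2, so this list, too, had higher ratios on array 2. The ratio was more than 1.3-fold higher on array 2 in 9 of the 11 genes. The composition of that difference was not that of the members, since the *Plzf* lu/lu signal was higher on array 2 in 4 genes and the wild type signal lower on array 2 in 5. The 4 genes, named after their values were seen, were *Slit1* (2.06-fold), an axon repellent, *Spon1* (1.68-fold), the floor plate adhesion protein F-spondin, *Corin* (1.61-fold), a protease of the midbrain floor plate, and *Ferd3l* (1.44-fold), a bHLH factor of the same midline.

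Of 14 other ventral neural tube factors, 5 passed and 0 of these were beyond 1.3-fold on both arrays in either direction, with a median log2 ratio of 0.25. Of the 13 that were well above background, 3 were higher beyond 1.3-fold on both arrays, where 2.52% of all genes were, and 0 were lower. They were *Olig1* (log2 ratios of 1.00 and 0.97) and *Olig2* (0.72 and 0.60), bHLH factors of ventral progenitors, and *Nkx2-1*, a factor of the ventral forebrain (1.27 and 0.47). These genes, and those named at this level below, were chosen after their values were seen. Of 10 genes of the midbrain floor plate lineage 5 passed. Of these, 2 were higher beyond 1.3-fold on both arrays, where 2.58% of all filtered genes were, and 0 were lower. *Otx2*, a factor of forebrain and midbrain identity, was higher by 1.31-fold on each array and *Th*, the rate-limiting enzyme of dopamine synthesis, by 1.36-fold and 1.41-fold. The median log2 ratio was 0.32 over the 5 lineage genes that passed, but 0.10 over the 8 that were well above background. Of 12 netrin receptors and other netrins 3 passed, with 0 beyond 1.3-fold and a median of 0.04. Of the 9 well above background, the netrin receptor *Unc5a* was higher (log2 ratios of 0.61 and 0.40) and the netrin-G gene *Ntng1* lower (-1.20 and -0.84). On the dorsal side, 5 of 11 genes passed and *Pax3*, a factor of dorsal progenitors, was lower, with log2 ratios of -0.40 and -0.70. The median of the 5 was -0.12. Of the 9 dorsal genes well above background, 3 were lower beyond 1.3-fold on both arrays, where 2.07% of all genes were, and 0 were higher. Besides *Pax3* these were *Olig3*, a bHLH factor of dorsal progenitors, with log2 ratios of -1.23 and -1.03, and *Wnt3a*, a Wnt ligand of the dorsal midline, with -1.33 and -1.11. Of the closest paralogs of the members, 1 of 12 passed, *Lmx1a*, and it was not beyond 1.3-fold in one direction on both arrays.

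**Figure D4:**
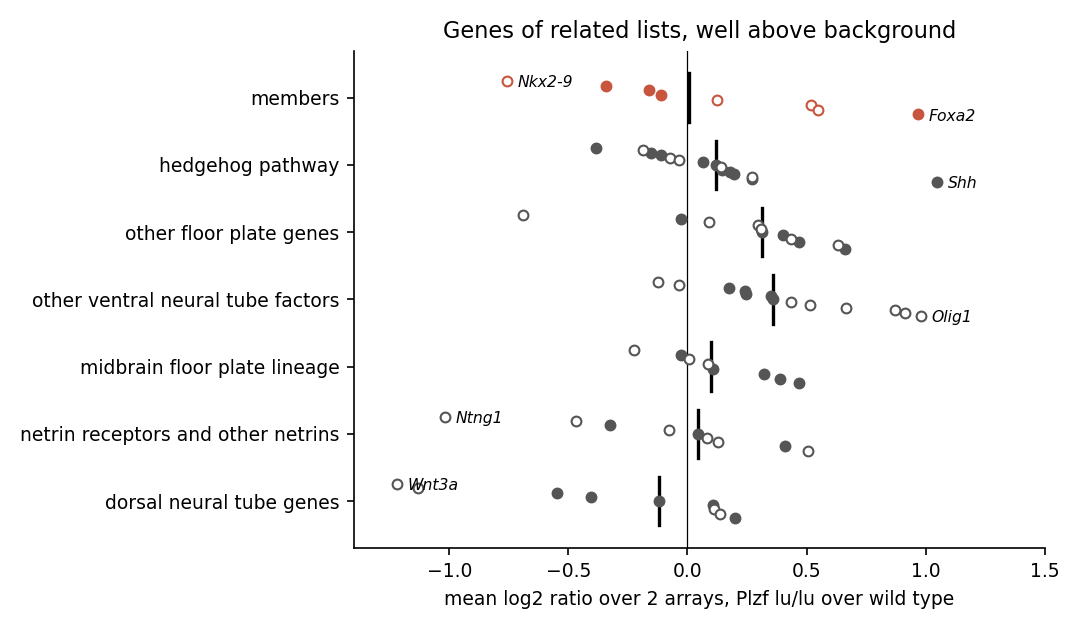
Mean log2 ratio of Plzf lu/lu over wild type (2 arrays) for the members (red) and for genes of 6 related lists (grey) that were well above background in every channel; filled points passed the signal filter, black bars are medians, and the outermost genes beyond 0.7 in size are named. The members lie on both sides of 0, from -0.76 (Nkx2-9) to 0.97 (Foxa2), with a median of 0.01, whereas the medians are 0.31 for other floor plate genes, 0.36 for other ventral factors and -0.12 for dorsal genes.

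The Foxa and Nkx2 genes lie in a pair of similar gene clusters, on chromosomes 2 and 12, and each cluster also holds a Pax gene and a second Nkx2 gene. On chromosome 2 the probe of *Nkx2-2* lies 860 kb from that of *Foxa2*, that of *Pax1* 650 kb and that of *Nkx2-4* 960 kb. On chromosome 12 the probe of *Nkx2-9* lies 929 kb from that of *Foxa1*, that of *Pax9* 831 kb and that of *Nkx2-1* 1009 kb. On chromosome 12 *Foxa1*, *Pax9* and *Nkx2-1* were positive on both arrays and *Nkx2-9* was negative on both. Next to *Nkx2-9*, which was lower on both arrays, *Nkx2-1* had log2 ratios of 1.27 and 0.47 and *Pax9* of 0.34 and 0.71. On chromosome 2, *Pax1* stayed at 0.07 and -0.01, and *Nkx2-4* had 1.54 on array 1 and -0.67 on array 2. Of the genes of both clusters, only *Foxa2* passed the signal filter. The signals of *Pax9* (28.0 to 51.5) and *Pax1* (48.2 to 59.0) were far under 200.

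**Figure D5:**
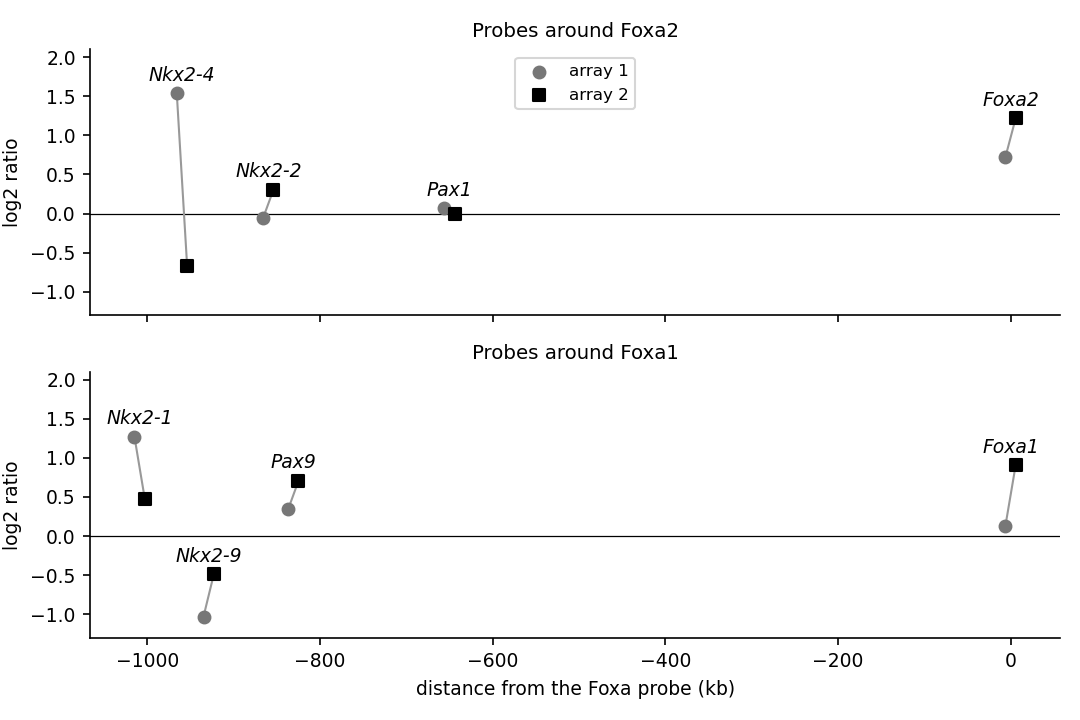
Log2 ratio of Plzf lu/lu over wild type on array 1 (grey circles) and array 2 (black squares) against the distance of each probe from the Foxa2 probe (top) or the Foxa1 probe (bottom) in kb. The Foxa genes are positive on both arrays, Nkx2-9 is negative on both although Nkx2-1 and Pax9 beside it are positive, and Nkx2-4 changes sign between arrays. Only Foxa2 passed the signal filter.

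Sequence upstream of the starts was available for 8 of the 9 members in the RefSeq table (GRCm38.p6), as 10 windows of 250 bases before each start, without *Ntn1*. Each was searched on both strands for the Gli site GACCACCCA, its core CCACCC, which the longer site contains, the forkhead motif TGTTTAC and the NK2 motif CACTTNA. The Gli site was found in 0 member windows and in 0.225% of the 32851 windows of all genes. The core was found upstream of *Foxa2* and *Nkx2-9*, and in 28.1% of all windows. The forkhead motif was found at *Foxa1* (3.17% of all windows) and the NK2 motif at *Nkx2-2* (10.1%). The *Foxa2* and *Nkx2-9* stretches are shown because these genes hold the same core and had opposite ratios, and those of *Foxa1* and *Nkx2-2* because the motif is that of a factor of their own family. They run 5′ to 3′ on the strand of the gene, which is the minus strand for each, at chr2:148045504-148045533, chr12:56613474-56613503, chr12:57546234-57546263 and chr2:147186581-147186610 in this order. Capitals mark the motif, or its reverse complement where the match is on the other strand:
Foxa2: GGGTGGgaggtcggctggcgaggGGGTGGg
Nkx2-9: ggtcactgttcgCCACCCaagatgttattc
Foxa1: tatactgctttGTAAACAaagtgagggcca
Nkx2-2: ctgtcttcatcCACTTGActcccaagaccc

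The *Foxa2* cores shown begin at positions -69 and -46, and that of *Nkx2-9* at -207. Another window of *Foxa2* held cores at -24 and -18, and a further window held none. *Foxa2* was thus searched in more windows than *Nkx2-9*. The forkhead match of *Foxa1* begins at -141 and the NK2 match of *Nkx2-2* at -197. The arrays measured no binding, and a match is given as letters only. The windows of *Nkx6-1*, *Nkx6-2*, *Lmx1b* and *Sim1* held none of these motifs.

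Across the series, each array held 59305 gene spots, of which 137 on array 1 and 126 on array 2 were outliers and 0 were saturated. The number of spots well above background was 36936 in the array 1 wild type sample and between 43546 and 44318 in the other 3. The arrays shared 1 slide and 1 scan. The mutated gene, *Zbtb16*, had log2 ratios of -1.33 and -1.37, in the direction of the labels. Having only 2 arrays limits how precise any value given here can be.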

How the data were processed

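RNA of *Plzf* lu/lu (Cy5) and wild type (Cy3) brain was measured on 2 arrays, and groups and replicate numbers were taken from the sample labels. The authors processed the scans with Feature Extraction 10.7.3.1, which subtracted background and normalized the dyes by rank-consistency LOWESS. The deposited files hold the intensity of each spot and the log10 ratio of Cy5 over Cy3, and a second deposited table holds the ratio as log2. Positions of probes come from the deposited annotation (mm9).

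Controls and outlier spots were removed, repeated spots were averaged as log2 values, and the probe with the highest mean signal stood for a gene. In R 4.3.3, limma 3.58.1 was used on the log2 ratios (intercept only, eBayes, Benjamini-Hochberg adjustment over all genes tested), pairing the channels of each array. Each gene has 1 residual degree of freedom, to which the variance pooled across genes adds 4.63, and p-values measure only the spread between these samples. The procedure was tested on simulated data. Sequences and plots were handled in Python 3.11.15 with pandas 2.3.3, numpy 2.4.6 and matplotlib 3.10.9. All members and probes are named, and of the 7 gene lists those beyond 1.3-fold on both arrays. Some items that this rule selects are not reported here. The members, lists and tests were chosen with earlier results of these data known. Alternatives are given under the dependence on the processing, and the scaling between arrays was added after seeing the data.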

Additional observations from a re-analysis of the deposited data

How the results depend on the processing

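*Foxa2* was higher beyond 1.3-fold on both arrays under each alternative tried for that count, and 1 member was higher with either array left out. Without a filter 2 members were higher, *Sim1* being added, and 1 was lower, *Nkx2-9*. At that setting 1695 of all 37071 gene names were higher and 2173 were lower. *Nkx2-9* was also the 1 lower member among genes well above background. The number of lower members ranged from 0 to 2 with a replicate left out, the 2 being *Nkx6-1* and *Nkx6-2* on array 1 alone. With the GC trend of the probe removed, 1 member (*Foxa2*) had an adjusted p under 0.05 in limma, as did 707 of the 10600 genes. With eBayes with trend it was 1 member and 393 genes. With normexp and median centring, which shifts all genes, it was 3 members and 9644 of the 10600 genes. At a threshold of 0.1 in the main fit it was 1 member, against 12.2% of the genes tested. Over the alternatives the adjusted p of *Foxa2* in limma lay between 1.66e-19, under normexp with median centring, and 0.524, without a filter. Without the pairing of channels by array (no replicate block), 0 members passed and *Foxa2* had an adjusted p of 0.119. The causes were not tested. With the signals close to background, *Sim1* depended most on the background correction, with a mean log2 ratio of 0.40 under normexp with median centring.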
